A study of Sus scrofa with 4 samples.

Results

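The lysosome, cathepsin and autophagy genes of pig blastocysts were followed on 4 two-colour microarrays. They were chosen by gene symbol: symbols that start with ATP6V or ATP6AP, that are CTS with 1 letter, that start with ATG or LAMP and a number, or that start with GABARAP or MAP1LC3. This rule took 65 of the 43794 EMPV1 probes of the porcine array, out of 13146 probes with a symbol, and the 65 probes stood for 44 genes. EMPV1 is the array's own probe prefix.

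Oocytes were exposed to high NEFA (non-esterified fatty acids, the free fatty acids of blood) or kept as controls, and blastocysts derived from them were pooled 10 at a time. Every array compared 1 high NEFA pool with 1 control pool. Both kinds of pool were collected on days 7 and 8, and there were 4 pools of each kind. High NEFA pools carried Cy3 on replicates 1 and 2 but Cy5 on replicates 3 and 4. According to the study's title the work used a monolayer of GCs in co-culture; GCs is not spelled out, and whether the control pools had it too is not stated. Total RNA is the labelled molecule, yet the extraction and labelling protocols concern genomic DNA cut with methylation-sensitive enzymes, so the ratios below are transcript ratios only if RNA was hybridised. The concentration and make-up of the fatty acids and the breed of the animals are not given in the sources used here. Whether the replicates were separate sows or collections is not stated, so p-values measure only the spread between these pools.

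Lysosomes are acidic compartments in which hydrolases break down what the cell takes in or discards. The vacuolar ATPase (V-ATPase) pumps protons into them: its V0 part forms the proton path in the membrane, and its V1 part binds and splits ATP in the cytosol. Cathepsins are proteases that mostly work at this acid pH, LAMP proteins coat the inside of the lysosomal membrane, and the ATG proteins with the GABARAP and MAP1LC3 proteins build the autophagosome, which delivers cytoplasm to the lysosome. In the mouse, autophagy is needed for the embryo to develop past its first cleavages. The roles named for single genes below are known mainly from yeast, human and mouse work.

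No lysosome, cathepsin or autophagy probe differed between high NEFA and control blastocysts past the threshold. A probe was tested where its signal was above the negative controls in at least 4 of the 8 channels, and 46 of the 65 probes, for 36 genes, were tested. Of these 46 probes, 0 had an adjusted p under 0.05 in limma's moderated test with Benjamini-Hochberg adjustment over all 24505 tested probes, and the smallest adjusted p among them was 0.766. Over all tested probes 0 passed as well (0.0%), with a smallest adjusted p of 0.0949. In pools of whole blastocysts, fewer cells of a type and less RNA per cell cannot be told apart.

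The fitted log2 ratio of high NEFA over control was positive for 21 of the 46 probes and negative for 25, with a median of -0.01. Positive ratios made up 45.7% of these probes, against 48.2% of all tested probes, whose median was also -0.01. The extremes among the 46 were -0.45 for ATP6V0C and 0.31 for ATG4D. Of the 46 ratios, 36 lay within 0.2 of 0 in either direction, against 18996 of all 24505 tested probes. The 95% intervals held 0 for 42 of the 46 probes, and in 0 of them did an interval reach a 2-fold difference. The interval bound farthest from 0 was 0.73 in size, and the median interval reached 0.31 to either side of the fitted ratio, a factor of 1.24. From mean pixels of the same 4 arrays the median SE over the 46 probes was 0.07, against 0.14 from median pixels.

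At an unadjusted p under 0.05, 4 of the 46 probes (8.7%) stood out, against 1570 of all tested probes (6.41%). One was higher in high NEFA pools, ATG4D, against 3.17% of all tested probes in that direction. The other 3 were lower, ATP6V0C, CTSZ and MAP1LC3A, against 3.24% of all tested probes. The count depended on single arrays: leaving out replicate 1, 2, 3 or 4 gave 7, 4, 1 or 2 probes. Over all tested probes the same omissions gave 2259, 2364, 1209 and 1306, so the count moved there too. With the mean instead of the median pixel of each spot, the count was 2 of the 46 (4.35%), against 2279 of all tested probes (9.3%). These 2 were ATP6V1A and ATP6V1C2, neither of them among the 4.

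**Figure D1:**
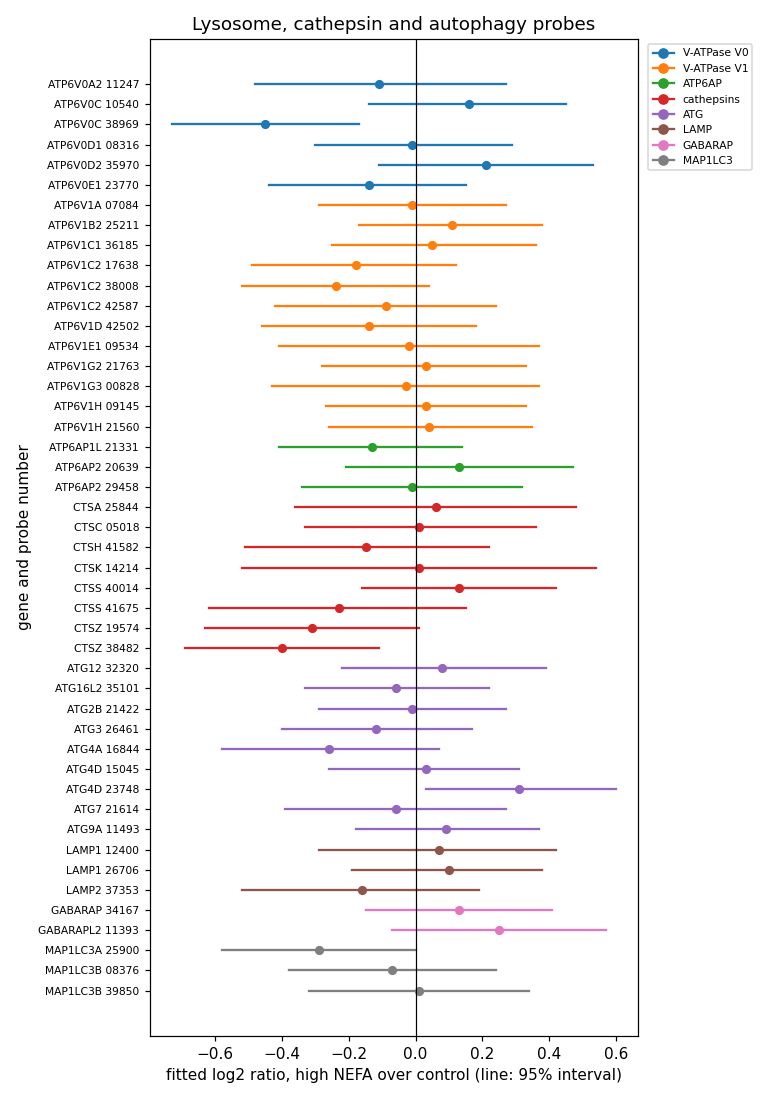
Fitted log2 ratio of high NEFA over control (points) with its 95% interval (lines) for the 46 tested probes, by gene family; the number after each symbol is that of the EMPV1 probe. Intervals of 42 of the 46 probes cross 0, and the fitted ratios run from -0.45 for an ATP6V0C probe to 0.31 for an ATG4D probe.

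The V0 part of the proton pump was taken by the ATP6V0 prefix, so a subunit under another symbol is not counted in it. This group had 7 probes for 6 genes: 2 for ATP6V0C, and 1 each for ATP6V0A2, ATP6V0A4, ATP6V0D1, ATP6V0D2 and ATP6V0E1. Of these, 6 probes were tested, and the ATP6V0A4 probe, for a kidney-type form of the large membrane subunit, was not. The tested probes had 2 positive and 4 negative ratios with a median of -0.06, and 1 of the 6 was at an unadjusted p under 0.05.

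ATP6V0C encodes the proteolipid whose copies form the proton-carrying ring. Its probe EMPV1_38969 had log2 intensities of 12.33, 12.43, 12.17 and 11.96 in the high NEFA pools of replicates 1 to 4, against 12.11, 12.28, 13.20 and 13.09 in the control pools. The control pools of replicates 3 and 4 were about 1 log2 unit above their high NEFA pools, while those of replicates 1 and 2 were slightly below theirs. The array ratios of 0.22, 0.14, -1.03 and -1.13 gave a fitted log2 ratio of -0.45 ± 0.12 (SE, 4 arrays), a fold of 0.732 (unadjusted p = 0.0046, limma's adjusted p = 0.766). These ratios changed sign between the dye orientations, and the fitted dye effect, Cy5 over Cy3, was -0.63, larger than the exposure ratio. From mean pixels the fitted ratio of the same probe was -0.01 ± 0.07 (SE).

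The other ATP6V0C probe, EMPV1_10540, read 12.71, 13.15, 12.64 and 12.74 in the high NEFA pools, against 12.25, 12.76, 12.52 and 13.07 in the control pools (log2 intensity). It was higher in the high NEFA pool on 3 arrays and lower on replicate 4, with a fitted log2 ratio of 0.16 ± 0.13 (SE; limma's adjusted p = 0.836). The 2 probes of this gene therefore lay 0.61 apart in log2 ratio and on opposite sides of 0.

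The remaining V0 genes had ratios near 0 or mixed signs. ATP6V0D1, the widely expressed d subunit that joins the ring to the stalk of the pump, had array ratios of 0.80, 0.38, -0.53 and -0.67 and a fitted log2 ratio of -0.01 ± 0.13 (SE; limma's adjusted p = 0.993). ATP6V0D2, the d subunit known from osteoclasts and kidney, had ratios of 0.37, 0.45, 0.33 and -0.31, so that replicate 4 stood against the other 3 arrays, and a fitted log2 ratio of 0.21 ± 0.14 (SE; limma's adjusted p = 0.801). The ATP6V0D2 ratio was 0.05 without replicate 3 and 0.37 without replicate 4. The fitted log2 ratios of ATP6V0A2, a large membrane subunit, and ATP6V0E1, a small one, were -0.11 ± 0.17 and -0.14 ± 0.13 (SE).

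The V1 part had 16 probes for 10 genes. There were 3 probes each for ATP6V1C1 and ATP6V1C2, 2 each for ATP6V1D and ATP6V1H, and 1 each for ATP6V1A, ATP6V1B2, ATP6V1E1, ATP6V1E2, ATP6V1G2 and ATP6V1G3. Of the 16, 12 were tested: 1 of 3 for ATP6V1C1, 1 of 2 for ATP6V1D, 0 for ATP6V1E2 and all probes of the other genes. The tested probes had 5 positive and 7 negative ratios between -0.24 and 0.11 with a median of -0.01, and 0 of the 12 were at an unadjusted p under 0.05. From mean pixels the V1 median was -0.10.

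ATP6V1C2, a tissue-restricted form of the C subunit that clamps V1 onto V0, had negative fitted ratios on all 3 of its probes. Probe EMPV1_38008 read 10.61, 10.34, 10.12 and 10.32 in the high NEFA pools, against 10.23, 10.15, 10.83 and 11.13 in the control pools (log2 intensity). Its ratios of 0.38, 0.18, -0.71 and -0.81 changed sign with the dye, as those of ATP6V0C probe EMPV1_38969 did, and the fitted log2 ratio was -0.24 ± 0.12 (SE; unadjusted p = 0.0852, limma's adjusted p = 0.769). From mean pixels it was -0.19 ± 0.07 (SE; unadjusted p = 0.0488, limma's adjusted p = 0.535). Probe EMPV1_17638 of the gene had ratios of -0.17, 0.22, -0.59 and -0.19 and a fitted log2 ratio of -0.18 ± 0.14 (SE; limma's adjusted p = 0.820), and the third ATP6V1C2 probe, EMPV1_42587, had -0.09 ± 0.15 (SE).

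ATP6V1A, the catalytic subunit that splits ATP, had array ratios of 0.65, 0.76, -0.65 and -0.80, which cancelled to a fitted log2 ratio of -0.01 ± 0.12 (SE). From mean pixels the ATP6V1A ratio was -0.15 ± 0.03 (SE; unadjusted p = 0.0131, limma's adjusted p = 0.511). ATP6V1B2, the nucleotide-binding partner of the A subunit, was the V1 probe with the same direction on all 4 arrays, at 0.14, 0.06, 0.09 and 0.14, and its fitted log2 ratio was 0.11 ± 0.12 (SE; limma's adjusted p = 0.869). These 2 genes and their values are given although the naming rule did not call for them. ATP6V1G3, a stalk subunit known from kidney, had ratios of 0.66, -0.23, 0.08 and -0.65 and a fitted log2 ratio of -0.03 ± 0.18 (SE; limma's adjusted p = 0.977). The fitted log2 ratios of the other V1 subunits were 0.05 for ATP6V1C1, -0.14 for ATP6V1D, -0.02 for ATP6V1E1, 0.03 for ATP6V1G2, and 0.03 and 0.04 for both probes of ATP6V1H.

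Among the accessory genes of the pump, ATP6AP1L had 1 probe and ATP6AP2 had 2, all tested. ATP6AP1L is a relative of the V-ATPase accessory protein ATP6AP1; its ratios were 0.02, 0.04, -0.30 and -0.29, with a fitted log2 ratio of -0.13 ± 0.12 (SE; limma's adjusted p = 0.846). ATP6AP2, the (pro)renin receptor that takes part in assembly of the pump, had ratios of 0.04, -0.18, 0.72 and -0.05 on probe EMPV1_20639. Replicate 3 set the sign of the fit: the fitted log2 ratio of 0.13 ± 0.15 (SE; limma's adjusted p = 0.869) was -0.06 without that array. The second ATP6AP2 probe, EMPV1_29458, had a fitted log2 ratio of -0.01 ± 0.15 (SE).

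Many ratios changed sign between the dye orientations. The V1 probes had median ratios of 0.16 and 0.20 on replicates 1 and 2 (high NEFA in Cy3), and of -0.48 and -0.38 on replicates 3 and 4 (high NEFA in Cy5). The V0 medians on replicates 1 to 4 were 0.29, 0.28, -0.08 and -0.50, and the ATG medians ran the other way, at -0.11, -0.24, 0.09 and 0.11. Ratios of opposite sign in the 2 dye orientations, with both arrays of each orientation alike, occurred in 18 of the 46 probes (39.1%), against 41.6% of all tested probes. By family these were 4 of 6 V0 probes, 4 of 12 V1 probes, 2 of 3 ATP6AP probes, 1 of 8 cathepsin probes, 5 of 9 ATG probes, 2 of 3 LAMP probes and 0 of the GABARAP and MAP1LC3 probes. The fitted dye effect was larger than the fitted exposure ratio for 33 of the 46 probes (71.7%), against 72.6% of all tested probes.

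The same direction on all 4 arrays was found for 7 of the 46 probes (15.2%), against 7.82% of all tested probes. The probes higher in all 4 high NEFA pools were those of ATG4D, ATG9A, GABARAP and ATP6V1B2, and the probes lower in all 4 were that of MAP1LC3A and both of CTSZ, which share a gene. From mean pixels 2 of the 46 probes (4.35%) did so, ATG4D EMPV1_23748 and MAP1LC3A, against 3.41% of all tested probes.

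**Figure D2:**
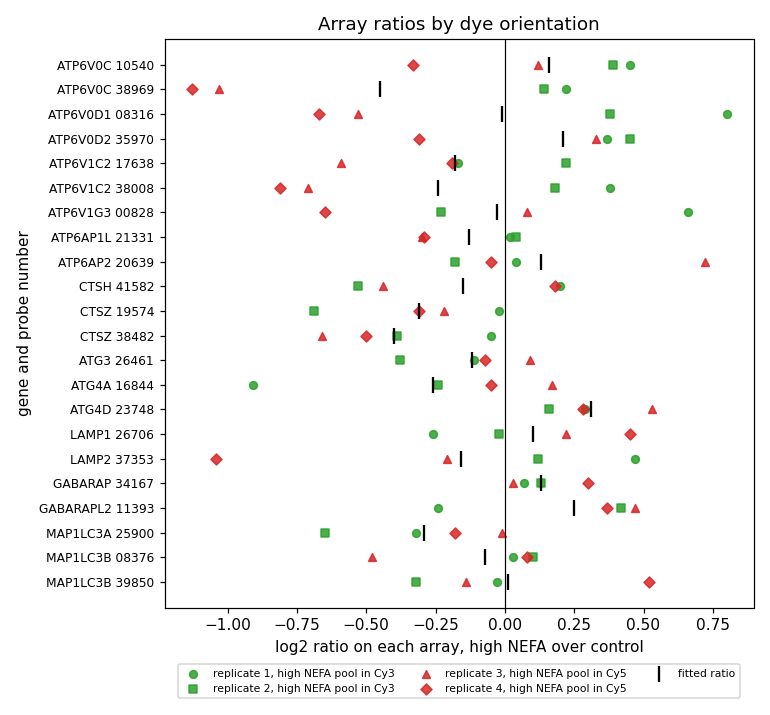
Log2 ratio of high NEFA over control on each of the 4 arrays for the 22 probes named by rule, with the fitted ratio as a black bar; green symbols are arrays with the high NEFA pool in Cy3, red symbols those with it in Cy5. Both green symbols lie right of 0 and both red ones left of 0 for ATP6V0C EMPV1_38969, ATP6V0D1, ATP6V1C2 EMPV1_38008, ATP6AP1L and LAMP2. The reverse holds for LAMP1 EMPV1_26706. All 4 symbols lie on the same side for both CTSZ probes, ATG4D EMPV1_23748, GABARAP and MAP1LC3A.

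The cathepsins had 13 probes for 8 genes: 3 for CTSS, 2 each for CTSC, CTSW and CTSZ, and 1 each for CTSA, CTSH, CTSK and CTSO. Of these, 8 probes of 6 genes were tested (2 for CTSS, 1 for CTSC, 2 for CTSZ, 1 each for CTSA, CTSH and CTSK), and CTSO and CTSW had no tested probe. Of the 8 probes, 4 had positive and 4 had negative ratios, with a median of -0.07. The median rested on single arrays: it was -0.35 without replicate 1 and 0.03 without replicate 2, and it was 0.01 when each gene was represented by 1 probe, its tested probe of highest mean log2 intensity.

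CTSZ, the lysosomal carboxypeptidase cathepsin Z, was the cathepsin with the lowest ratios, and on both of its probes. Probe EMPV1_38482 read 8.12, 8.94, 9.42 and 8.74 in the high NEFA pools (mean 8.81 ± 0.54, SD, n = 4), against 8.17, 9.34, 10.07 and 9.25 in the control pools (mean 9.21 ± 0.78, SD, n = 4), in log2 intensity. The high NEFA pool was the lower one on every array, by little on replicate 1, and the levels of the 2 groups overlapped across arrays. The ratios of -0.05, -0.39, -0.66 and -0.50 gave a fitted log2 ratio of -0.40 ± 0.13 (SE; 95% interval -0.69 to -0.11), a fold of 0.757 (unadjusted p = 0.0113, limma's adjusted p = 0.766).

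On the other CTSZ probe, EMPV1_19574, the high NEFA pools read 9.73, 9.86, 11.10 and 9.96 and the control pools 9.74, 10.55, 11.32 and 10.27 (log2 intensity). Again the high NEFA pool was lower on each array and the groups overlapped. The ratios were -0.02, -0.69, -0.22 and -0.31, and the fitted log2 ratio was -0.31 ± 0.14 (SE; unadjusted p = 0.0578, limma's adjusted p = 0.766). Without replicate 2 it was -0.14, and without replicate 1 it was -0.48. From mean pixels both probes were closer to 0, at -0.15 ± 0.08 for EMPV1_38482 and -0.17 ± 0.08 for EMPV1_19574 (SE), and the ratio of replicate 1 was then positive on both, at 0.06 and 0.10.

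The level of CTSZ differed more between arrays than between the pools of an array. The mean log2 intensity of both pools was 8.14, 9.14, 9.75 and 9.0 on replicates 1 to 4 for probe EMPV1_38482, a range of 1.60 or 3.04-fold, which 98.4% of all tested probes did not exceed. For CTSZ probe EMPV1_19574 it was 9.73, 10.21, 11.21 and 10.11, a range of 1.47 or 2.77-fold, and 98.0% of tested probes were at or below it. Both probes gave the same order of arrays, with replicate 1 lowest and replicate 3 highest, while the median level of all tested probes was 8.38, 8.26, 8.40 and 8.46. Arrays were not scaled to each other, and with between-array quantile scaling of the mean intensities (Aquantile) the ranges were 1.61 and 1.48. From mean pixels they were 0.96 for EMPV1_38482 and 1.47 for EMPV1_19574.

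**Figure D3:**
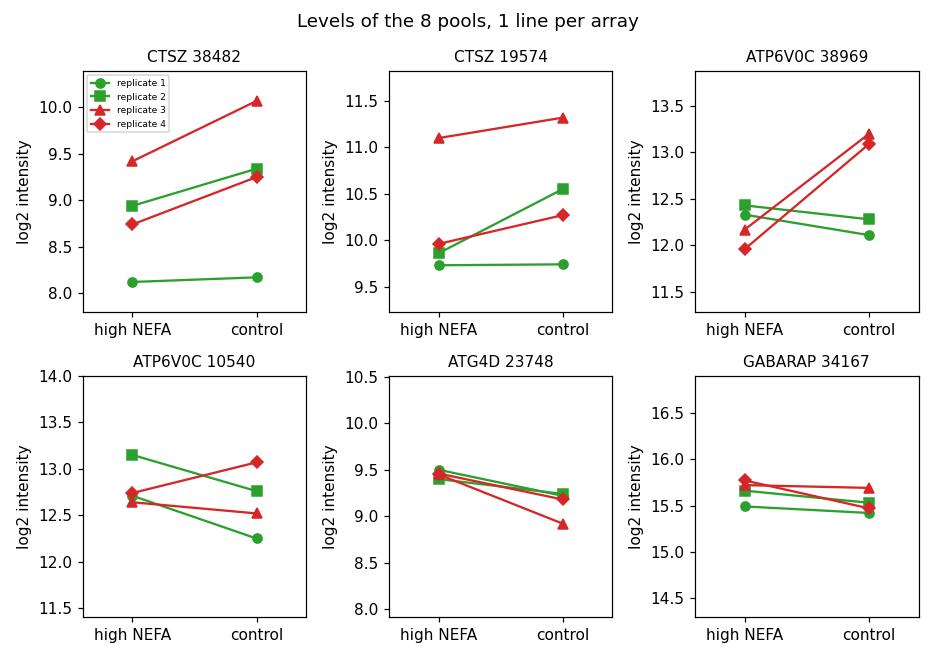
Log2 intensity of the high NEFA pool (left) and the control pool (right) of each array for 6 probes, with a line joining the pools of 1 array (green, high NEFA in Cy3; red, high NEFA in Cy5). Lines of CTSZ run upward to the control on all 4 arrays but start at levels that differ by more than 1 log2 unit, those of ATP6V0C EMPV1_38969 cross between the dye orientations, and those of ATG4D run downward from a narrow band near 9.45.

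Among the other cathepsins, CTSH, an aminopeptidase, had ratios of 0.20, -0.53, -0.44 and 0.18. On 2 arrays the high NEFA pool was higher and on 2 lower, and the fitted log2 ratio was -0.15 ± 0.16 (SE; limma's adjusted p = 0.865). The fitted log2 ratios of CTSA, the serine carboxypeptidase that protects beta-galactosidase and neuraminidase, of CTSC, which activates serine proteases of immune cells, and of CTSK, the collagen-degrading cathepsin of osteoclasts, were 0.06 ± 0.19, 0.01 ± 0.15 and 0.01 ± 0.24 (SE). CTSK had ratios of 0.55, -1.0, 0.69 and -0.20, the widest spread within a dye orientation among the 46 probes (SD 0.89). CTSS, a cathepsin of antigen-presenting cells, had fitted log2 ratios of -0.23 ± 0.17 and 0.13 ± 0.13 (SE) on its tested probes EMPV1_41675 and EMPV1_40014. Probe EMPV1_41675 passed the background limit in 1 of 4 high NEFA channels, against 4 of 4 control channels, and EMPV1_40014 in 4 of 4 high NEFA channels, against 2 of 4 control channels.

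How far levels differed between arrays varied among the families. The range of array levels had a median of 0.70 over the 8 cathepsin probes and of 0.70 over the 3 MAP1LC3 probes. It was 0.46 over V0, 0.39 over V1, 0.47 over ATP6AP, 0.49 over LAMP, 0.28 over GABARAP and 0.20 over ATG probes, against 0.44 over all tested probes. After CTSZ, the widest ranges among the 46 probes were 1.04 for CTSC, with levels of 10.65, 9.89, 10.39 and 10.93, and 0.94 for ATP6V0D2, with 11.43, 10.73, 11.62 and 11.67. The narrowest was 0.03 for ATG16L2. In all, 4 of the 46 probes (8.7%) lay above 0.81, the 90th percentile of all tested probes.

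**Figure D4:**
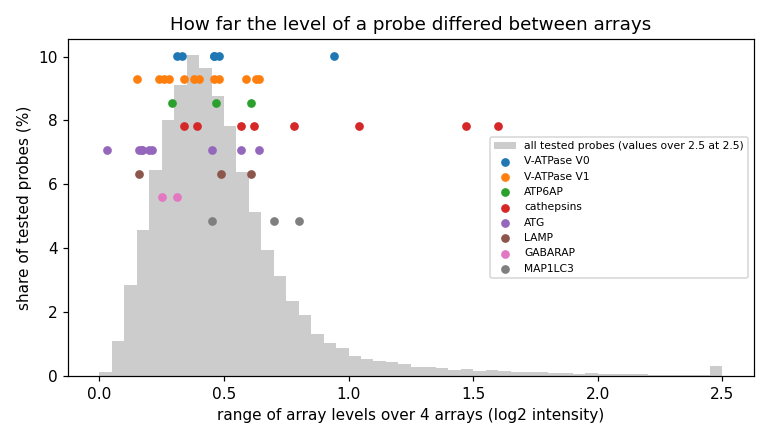
Range over the 4 arrays of a probe's level, taken as the mean log2 intensity of both pools of an array: grey bars give the percentage of all tested probes per bin, and coloured points mark the 46 lysosome, cathepsin and autophagy probes, 1 line of points per family at an arbitrary height. Both CTSZ probes lie at 1.47 and 1.60 in the right tail, with CTSC at 1.04 and ATP6V0D2 at 0.94, while most ATG probes lie at the narrow end.

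LAMP1 and LAMP2, the main glycoproteins of the lysosomal membrane, had 2 probes and 1 probe, all tested. LAMP1 probe EMPV1_26706 had ratios of -0.26, -0.02, 0.22 and 0.45, negative with high NEFA in Cy3 and positive with it in Cy5, and a fitted log2 ratio of 0.10 ± 0.13 (SE; limma's adjusted p = 0.890). The second LAMP1 probe, EMPV1_12400, had 0.07 ± 0.16 (SE). LAMP2, whose A form is the receptor of chaperone-mediated autophagy, had the opposite dye pattern with ratios of 0.47, 0.12, -0.21 and -1.04, and a fitted log2 ratio of -0.16 ± 0.16 (SE; limma's adjusted p = 0.853). Replicate 4 set its sign: without it the LAMP2 ratio was 0.04. The median of the 3 LAMP probes was 0.07, and it was -0.12 without replicate 1 and -0.06 without replicate 3.

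The ATG genes had 17 probes for 11 genes. There were 3 for ATG4A, 2 each for ATG12, ATG16L1, ATG4D and ATG5, and 1 each for ATG16L2, ATG2B, ATG3, ATG4C, ATG7 and ATG9A. Of the 17, 9 were tested (2 for ATG4D and 1 each for ATG12, ATG16L2, ATG2B, ATG3, ATG4A, ATG7 and ATG9A), and ATG16L1, ATG4C and ATG5 had no tested probe. The tested probes had 4 positive and 5 negative ratios with a median of -0.01, and 1 of the 9 was at an unadjusted p under 0.05.

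ATG4D, one of the proteases that trim GABARAP and MAP1LC3 proteins before they are joined to lipid, had the highest ratio of the 46 probes. Its probe EMPV1_23748 read 9.50, 9.40, 9.45 and 9.46 in the high NEFA pools (mean 9.45 ± 0.04, SD, n = 4), against 9.22, 9.24, 8.92 and 9.18 in the control pools (mean 9.14 ± 0.15, SD, n = 4), in log2 intensity. Each high NEFA pool was above each control pool, but how often this held among all tested probes was not counted. The ratios of 0.29, 0.16, 0.53 and 0.28 gave a fitted log2 ratio of 0.31 ± 0.13 (SE; 95% interval 0.03 to 0.60), a fold of 1.24 (unadjusted p = 0.0326, limma's adjusted p = 0.766). From mean pixels it was 0.10 ± 0.04 (SE), again positive on all 4 arrays. The second ATG4D probe, EMPV1_15045, had ratios of 0.24, 0.26, -0.36 and -0.03 and a fitted log2 ratio of 0.03 ± 0.13 (SE; limma's adjusted p = 0.976).

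ATG4A, a protease of the same family, had ratios of -0.91, -0.24, 0.17 and -0.05 on its tested probe EMPV1_16844 and a fitted log2 ratio of -0.26 ± 0.15 (SE; unadjusted p = 0.108, limma's adjusted p = 0.770). Replicate 1 stood lowest, and without it the ATG4A ratio was -0.09. ATG3, the enzyme that passes ATG8-type proteins on to lipid, had ratios of -0.11, -0.38, 0.09 and -0.07 and a fitted log2 ratio of -0.12 ± 0.13 (SE; limma's adjusted p = 0.865). ATG9A, a membrane protein that seeds the autophagosome, had ratios of 0.12, 0.09, 0.05 and 0.11 and a fitted log2 ratio of 0.09 ± 0.12 (SE; limma's adjusted p = 0.893).

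The remaining tested ATG genes lay nearer to 0. ATG7, which activates both ATG12 and the ATG8-type proteins, had a fitted log2 ratio of -0.06 ± 0.15 (SE) with signal over background in 2 of 4 channels of each group. ATG12, which is coupled to ATG5, had 0.08 ± 0.14, ATG2B, a lipid-transfer protein, had -0.01 ± 0.13, and ATG16L2, a relative of the ATG5 partner ATG16L1, had -0.06 ± 0.12 (SE). The ATG12 ratios were the clearest example of dye dependence in this family, at -0.70, -0.26, 0.49 and 0.80.

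The ATG8-type proteins, which are attached to the autophagosome membrane, were represented by GABARAP and GABARAPL2 with 1 probe each, MAP1LC3A and MAP1LC3C with 1 each, and MAP1LC3B with 2. All but MAP1LC3C were tested. Both GABARAP probes had positive ratios with a median of 0.19, and the 3 MAP1LC3 probes had 1 positive and 2 negative ratios with a median of -0.07. Neither direction passed the test. With 1 array left out the GABARAP median ran from 0.10 to 0.28 and the MAP1LC3 median from -0.21 to 0.07, and from mean pixels they were 0.06 and 0.04.

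GABARAP, which acts late in autophagosome formation, had log2 intensities of 15.49, 15.66, 15.72 and 15.77 in the high NEFA pools and 15.42, 15.53, 15.69 and 15.47 in the control pools. The high NEFA pool was higher on each array by 0.07, 0.13, 0.03 and 0.30, and the groups overlapped. The fitted log2 ratio was 0.13 ± 0.13 (SE; limma's adjusted p = 0.853), and from mean pixels it was 0.03 ± 0.03 (SE). GABARAPL2 read 13.64, 13.89, 13.96 and 14.18 in the high NEFA pools, against 13.88, 13.48, 13.49 and 13.81 in the control pools. Replicate 1 was negative and the other 3 arrays positive, with ratios of -0.24, 0.42, 0.47 and 0.37 and a fitted log2 ratio of 0.25 ± 0.14 (SE; unadjusted p = 0.111, limma's adjusted p = 0.771). It was 0.42 without replicate 1 and 0.09 without replicate 2. From mean pixels the GABARAPL2 ratio was 0.09 ± 0.11 (SE).

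MAP1LC3A had log2 intensities of 8.16, 7.54, 8.32 and 8.15 in the high NEFA pools, against 8.48, 8.20, 8.33 and 8.33 in the control pools. It was close to background: 3 of 4 high NEFA channels exceeded it, against 4 of 4 control channels. The high NEFA pool was lower on every array, at ratios of -0.32, -0.65, -0.01 and -0.18, and the fitted log2 ratio was -0.29 ± 0.13 (SE; 95% interval -0.58 to 0.00), a fold of 0.818 (unadjusted p = 0.0492, limma's adjusted p = 0.766). From mean pixels it was -0.11 ± 0.04 (SE). MAP1LC3B, the usual marker of autophagosomes, had ratios of 0.03, 0.10, -0.48 and 0.08 on probe EMPV1_08376 and of -0.03, -0.32, -0.14 and 0.52 on probe EMPV1_39850. Its fitted log2 ratios were -0.07 ± 0.14 and 0.01 ± 0.15 (SE; limma's adjusted p = 0.944 and 0.995), with 1 array standing against the rest on each probe.

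Over the 9 genes with more than 1 tested probe, 5 had fitted ratios of the same sign on all their probes (ATG4D, ATP6V1C2, ATP6V1H, CTSZ and LAMP1) and 4 had opposite signs (ATP6AP2, ATP6V0C, CTSS and MAP1LC3B). The widest gap was 0.61 for ATP6V0C, then 0.36 for CTSS and 0.29 for ATG4D. The gap was 0.09 for CTSZ. Some of these signs rest on very small ratios, as for ATP6V1H (0.03 and 0.04) and MAP1LC3B (-0.07 and 0.01). The share of same signs among all genes with several tested probes was not counted.

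How a spot's pixels were summarised changed the size of the ratios. From mean pixels the median size of the fitted log2 ratio was 0.06, against 0.10 from median pixels, over the 46 probes, and the direction was the same for 35 of them (76.1%), against 65.9% of all tested probes. The SD between arrays of the same dye orientation was lower from mean pixels, with a median of 0.18 against 0.27 from median pixels. It was lower for 34 of the 46 probes, against 20635 of all 24505 tested probes. Over all tested probes the median of this SD was 0.10 from mean pixels and 0.24 from median pixels. The dye effect had a median size of 0.19 from mean pixels and 0.21 from median pixels over the 46 probes, and of 0.14 from mean pixels and 0.24 from median pixels over all tested probes. Mean local background of the 4 probes at an unadjusted p under 0.05 was 53.0 in high NEFA and 54.8 in control channels for ATP6V0C, 44.0 in high NEFA and 47.8 in control channels for CTSZ EMPV1_38482, 37.2 in high NEFA and 36.8 in control channels for ATG4D, and 41.2 in high NEFA and 48.2 in control channels for MAP1LC3A.

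**Figure D5:**
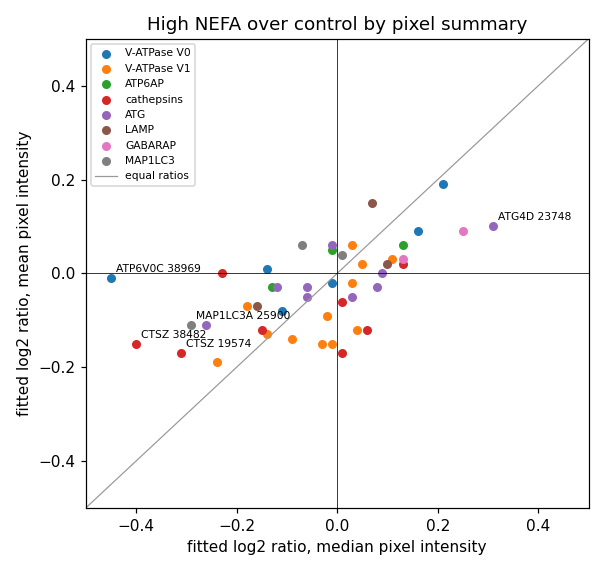
Fitted log2 ratio of high NEFA over control of the 46 probes from mean pixel intensities (vertical axis) against that from median pixel intensities (horizontal axis), with a line of equal ratios. The ATP6V0C probe EMPV1_38969 lies at -0.45 on the horizontal and -0.01 on the vertical axis, and both CTSZ probes, ATG4D EMPV1_23748 and MAP1LC3A keep their sign but lie nearer to 0 vertically.

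The 19 probes that were not tested were above background in at most 3 of the 8 channels, and 5 of them in none. Their 8 genes without any tested probe were ATG16L1, ATG4C, ATG5, ATP6V0A4, ATP6V1E2, CTSO, CTSW and MAP1LC3C, and no level is given for them. The share of probes tested was 70.8%, against 59.8% of all probes with a symbol and 56.0% of all EMPV1 probes. Of the 46 tested probes, 42 were above background in all 8 channels, and 0 were saturated.

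Other genes of lysosomes and autophagy were read from 5 lists, with 1 probe per gene. Of the 75 genes tested, 41 had positive and 34 negative ratios with a median of 0.03, 0 had an adjusted p under 0.05, and 5 (6.67%) had an unadjusted p under 0.05, against 6.39% of all 6226 genes. Of the lysosomal hydrolases, 19 were tested, 11 positive and 8 negative, with a median of 0.04. Of the genes of the lysosomal membrane, transport and sorting, 22 were tested, 10 positive and 12 negative, with a median of -0.01. Of the genes of autophagy initiation, cargo receptors and fusion, 21 were tested, 13 positive and 8 negative, with a median of 0.03. The list of TFEB and mTORC1 control, which sets lysosome number and the start of autophagy, had 7 positive and 4 negative ratios among 11 tested genes and a median of 0.08. TFEB, TFE3, MITF and TFEC were on this list but not among the genes tested. MTOR and TSC2, which restrains mTORC1, were counted together, so the median has no functional direction. Both tested cystatins, inhibitors of cathepsins, had negative ratios with a median of -0.23.

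The largest ratio in these lists was that of PINK1, the kinase that marks damaged mitochondria for autophagy, with array ratios of 0.87, 0.50, 0.35 and 0.15 and a fitted log2 ratio of 0.47 ± 0.13 (SE; unadjusted p = 0.00519, limma's adjusted p = 0.766). PIK3R4, the regulatory subunit of the lipid kinase complex that starts autophagosome formation, had ratios of 0.28, 0.55, 0.34 and 0.38 and a fitted log2 ratio of 0.39 ± 0.13 (SE; unadjusted p = 0.0121, limma's adjusted p = 0.766). Both were higher in the high NEFA pool on all 4 arrays. VPS41, part of the complex that tethers vesicles to lysosomes, was the third gene of that list at an unadjusted p under 0.05 and was named after its values were seen, with a fitted log2 ratio of -0.34 ± 0.13 (SE; unadjusted p = 0.0292, limma's adjusted p = 0.766).

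Among the membrane and sorting genes, TMEM192, a lysosomal membrane protein, had ratios of 0.78, 0.27, 0.30 and 0.11 and a fitted log2 ratio of 0.36 ± 0.14 (SE; unadjusted p = 0.0241, limma's adjusted p = 0.766). TMEM192 passed the background limit in 3 of 4 high NEFA channels, against 1 of 4 control channels. GGA3, an adaptor that sorts hydrolase receptors, had ratios of -0.10, 0.40, 0.36 and 0.58 and a fitted log2 ratio of 0.31 ± 0.14 (SE; unadjusted p = 0.0476, limma's adjusted p = 0.766). PSAP, the precursor of the saposins, had ratios of 0.35, -0.42, 1.35 and 0.33 and a fitted log2 ratio of 0.40 ± 0.19 (SE; limma's adjusted p = 0.766), a wide spread in which replicate 3 stood highest. The carboxypeptidase SCPEP1 had ratios of -0.54, 0.05, 0.58 and 0.89 and a fitted log2 ratio of 0.25 ± 0.14 (SE; limma's adjusted p = 0.775).

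The 2 genes of smallest p in the list of TFEB and mTORC1 control were PRKAA1 and TSC2, with array ratios of both signs. PRKAA1, a catalytic subunit of AMP-activated kinase, had ratios of -0.24, 0.68, -0.94 and -0.64 and a fitted log2 ratio of -0.28 ± 0.16 (SE; limma's adjusted p = 0.775). TSC2, which restrains mTORC1, had 0.41, 0.41, -0.22 and 0.03 and a fitted log2 ratio of 0.16 ± 0.13 (SE; limma's adjusted p = 0.831). Of the cystatins, CST6 was higher in the high NEFA pool on replicate 1 and lower on the other 3 arrays, with ratios of 0.76, -0.82, -0.89 and -0.36 and a fitted log2 ratio of -0.33 ± 0.22 (SE; limma's adjusted p = 0.804). CST7 had ratios of -0.10, -0.19, -0.18 and -0.06, lower in the high NEFA pool on all 4 arrays, and a fitted log2 ratio of -0.13 ± 0.12 (SE; limma's adjusted p = 0.846).

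Markers of the cells that the pools could hold were read the same way. All 8 tested trophectoderm markers had positive ratios, with a median of 0.20, against 47.2% positive ratios over all 6226 genes. Of the 8, 4 (50%) were at an unadjusted p under 0.05, against 6.39% of all genes, 0 had an adjusted p under 0.05, and 1 was positive on all 4 arrays. The 4 were DLX3, TFAP2C, GATA3 and DAB2, with fitted log2 ratios of 0.57, 0.37, 0.31 and 0.28. DLX3 passed the background limit in 2 of 4 channels of each group. Its array ratios were 1.31, 0.98, -0.10 and 0.07, and those of TFAP2C were 1.11, 0.35, 0.05 and -0.03. The mean log2 intensity of the 8 trophectoderm markers was 11.23 to 11.51 over the high NEFA pools and 10.99 to 11.39 over the control pools. Of 3 tested pluripotency markers, 2 had positive ratios, with a median of 0.15 and pool means of 8.00 to 8.54 in high NEFA and 7.77 to 8.30 in control pools. The 6 oocyte markers had a median ratio of -0.10, with pool means of 7.94 to 8.38 in high NEFA and 8.01 to 8.38 in control pools. At an unadjusted p under 0.05 there was 1 pluripotency marker, UTF1 (fitted log2 ratio 0.36, unadjusted p = 0.0215), and 1 oocyte marker, GDF9 (-0.33, unadjusted p = 0.0326), both with an adjusted p of 0.766 in limma. Granulosa cell markers had 2 and leukocyte markers 3 tested genes, with medians of -0.07 and -0.14. Their pool means were 8.66 to 9.64 in high NEFA and 8.81 to 9.46 in control pools for granulosa cells, and 9.51 to 10.05 in high NEFA and 9.66 to 10.14 in control pools for leukocytes. The part of these cell types in the ratios of the lysosome, cathepsin and autophagy genes was not tested.

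Across the arrays, the share of probes above background in replicates 1 to 4 was 57%, 58.5%, 50% and 50.2% for high NEFA pools, against 51.1%, 49%, 60.2% and 60.3% for control pools. Cy3 had the higher share on each array, whichever pool it labelled.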

How the data were processed

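Per the file headers, the deposited data give for each of 45220 spots the mean and the median pixel intensity, for the spot and around it, at 532 nm for Cy3 and 635 nm for Cy5. Spots marked to be ignored (60, 21, 17 and 17 on replicates 1 to 4) were left out. The authors' deposited log2 ratios are 1 column per array with scale, centring and direction unstated. Set against the scanner files, they followed log2 of Cy5 over Cy3, not turned by dye, after plain background subtraction, loess and quantile normalization (correlations 0.9998, 0.9991, 0.9983 and 0.9916 over 43794 spots; column medians 0.00222, 0.00826, 0.00878 and 0.0161), and they served as an alternative only. Per the submitters' processing notes limma was used, with no version or settings.

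Median pixel intensities were background-corrected with normexp (offset 50) and normalized by loess within each array, control spots at weight 0, with limma 3.58.1, statmod 1.5.0 and R 4.3.3. A probe was above background where its spot was brighter than the 153 negative controls' mean plus 2 SD, and it was tested where this held in at least 4 of 8 channels. limma fitted the exposure, signed by dye, and a dye intercept on 4 arrays. This left 2 residual degrees of freedom, to which moderation added 7.84, and gave a median SE of 0.13. The two-sided threshold was a Benjamini-Hochberg adjusted p of 0.05. The fitting step was tested on simulated data. Log2 intensities per pool are the normalized channel values, unscaled between arrays, and levels of different probes are not comparable.

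Gene symbols come from the platform annotation, which can be old; all 44 symbols were found in the RefSeq gene table. Near-identical genes could share signal on a probe. Members and lists were chosen with earlier results of these data known. Values on every array are given for probes at an unadjusted p under 0.05, for the 2 of smallest p and the brightest of each family, for both probes of a gene with opposite signs where one was at that p, and for the 2 genes of smallest p per further list; other genes were named after their values were seen. Alternatives were other background corrections, mean pixels, median centring, Aquantile, other filters, no dye intercept, the authors' ratios, 1 probe per gene and leaving out each array. Alternatives for the range of CTSZ levels were chosen after seeing the data.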

Additional observations from a re-analysis of the deposited data

Results flagged for a closer look

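For 3 probes, 1 array stood far from the other 3, with a gap to its nearest neighbour, as a share of the whole range of the 4 ratios (high NEFA over control), above Dixon's 95% critical value for 4 values. This share was 0.86 for GABARAPL2, where replicate 1 was low (ratios -0.24, 0.42, 0.47 and 0.37). It was 0.874 for MAP1LC3B probe EMPV1_08376, where replicate 3 was low (0.03, 0.10, -0.48 and 0.08), and 0.838 for ATP6V0D2, where replicate 4 was low (0.37, 0.45, 0.33 and -0.31). All 46 tested probes were looked at, and the array that stood apart differed between the 3. Chance alone gives some such values, at a rate of 5 in 100 sets of 4 drawn from the same normal distribution. These ratios come from both dye orientations and still hold the dye effect, so that rate need not apply to them. The share of all tested probes above this value was not counted.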

How the results depend on the processing

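Of the 46 lysosome, cathepsin and autophagy probes, and of the 75 further genes, 0 passed the adjusted threshold under every alternative run. Over all probes the count past it, 0 in the reported fit, was 6 with plain subtraction, 5 without a filter, 3 with the authors' ratios and 21 to 77 with 1 array left out. At an unadjusted p under 0.05 it was 1570 in the reported fit, 2279 with mean pixels and 3161 without a filter. This count was 755 with probes above background in all 8 channels, 201 without a dye intercept and 1209 to 2364 with 1 array left out. For the 46 probes that count, 4 in the reported fit, was 2 with mean pixels, 1 without a dye intercept and 1 to 7 with 1 array left out. For the further genes, 5 in the reported fit, it was 2 with mean pixels, 3 with probes above background in all 8 channels, 2 without a dye intercept and 3 to 10 with 1 array left out. With 1 array left out, the cathepsin median ran from -0.35 to 0.03 and the LAMP median from -0.12 to 0.04. With mean pixels 35 of the 46 probes kept their direction. The other alternatives were read for sign in the 22 probes named by rule. Aquantile, the filters and the fit without a dye intercept cannot change the fitted ratio of these probes, so they do not test its sign. Aquantile leaves the p-values unchanged as well. Among these 22, the ratios that changed sign were those of MAP1LC3B probe EMPV1_08376 (0.06 with mean pixels, -0.21 to 0.07 with 1 array left out), MAP1LC3B probe EMPV1_39850 (-0.01 with median centring, -0.16 to 0.17), ATP6V0D1 (0.02 with the authors' ratios, -0.11 to 0.10), ATP6V1G3 (0.01 with the authors' ratios, -0.26 to 0.19), and, with 1 array left out, ATP6AP2 probe EMPV1_20639 (-0.06 to 0.32), LAMP2 (-0.37 to 0.04) and CTSH (-0.33 to 0.03). With 1 array left out, ratios that kept their sign but moved by over 1.5 times included those of ATP6V0C probe EMPV1_10540 (0.05 to 0.27), ATP6V1C2 probe EMPV1_17638 (-0.28 to -0.08), ATG4A (-0.42 to -0.09), ATG3 (-0.18 to -0.05), LAMP1 probe EMPV1_26706 (0.04 to 0.16) and GABARAP (0.06 to 0.20). The cause of these shifts was not tested, and filters change which probes are tested. Fits without 1 array have 1 residual degree of freedom, and 1 dye orientation then rests on 1 array. MAP1LC3A could not be fitted with the filter on all 8 channels. The reported fit is itself paired, since each array ratio sets 1 high NEFA pool against 1 control pool. Signals close to background, as for MAP1LC3A, CTSS and ATG7, limit what the ratios can show.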
